A study of Mus musculus with 6 samples.

Results

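The genes described here are the SOX transcription factors of groups SOXB1 (Sox1, Sox2 and Sox3), SOXB2 (Sox21), SOXC (Sox4, Sox11 and Sox12), SOXD (Sox13) and SOXG (Sox15). They were chosen by name, with earlier results of these data known, from the families known to act in pluripotent and early neural cells. The SOXF genes were left out, and the chosen genes make up 9 of the 24736 genes in the expression table. The expression of each was compared between wild-type (WT) mouse embryonic stem cells (ESCs) and epiblast-like cells (EpiLCs) derived from them. The ESCs (0 h) were grown in knockout DMEM with 10% serum and 1000 U/ml LIF, the cytokine that maintains self-renewal. The EpiLCs were taken after 48 h in N2/B27 medium that contained bFGF (10 ng/ml) and LGK974 (5 µM), a blocker of WNT secretion, and so differ from the ESCs in serum, LIF, bFGF and LGK974 together. Each group has 3 biological replicates. All 6 libraries come from 1 cell line, the male HM1 TetON line, which carries the rtTA transgene at the Rosa26 locus in both groups, and the ESCs are propagated on a layer of mouse embryonic fibroblasts. Before differentiation these feeders are removed by letting them adhere to plastic, and whether this was done for the ESC libraries is not given in the sources used here.

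SOX proteins bind the minor groove of DNA through a high mobility group (HMG) box and bend it. SOX2 acts together with OCT4 (Pou5f1) at adjacent DNA motifs to maintain pluripotency, and its close relatives SOX1 and SOX3 can recognise the same motif and act in the epiblast and in neural progenitors. SOXB2 proteins carry a similar box but repress transcription, SOXC proteins activate genes of differentiating neurons and mesenchyme, and SOXD proteins lack a transactivation domain. SOX15 is the only SOXG protein and is found in ESCs, placenta and muscle precursors.

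The box that gives the family its name is printed for the 3 SOXB1 genes, because they make up the summed SOXB1 level used throughout. Each stretch holds 79 codons read 5′ to 3′ from the coding strand (GENCODE M21, build GRCm38), and capitals mark the bases of Sox3 and Sox1 that differ from Sox2. All 3 stretches lie in the single exon of an intronless gene, at chr3:34650536-34650772 on the plus strand for Sox2, chrX:60892771-60893007 on the minus strand for Sox3 and chr8:12396505-12396741 on the plus strand for Sox1.
Sox2: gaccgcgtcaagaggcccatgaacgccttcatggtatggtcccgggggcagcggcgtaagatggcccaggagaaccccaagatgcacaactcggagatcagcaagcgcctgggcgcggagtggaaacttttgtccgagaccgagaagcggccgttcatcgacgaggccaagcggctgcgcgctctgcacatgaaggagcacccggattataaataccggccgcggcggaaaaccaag
Sox3: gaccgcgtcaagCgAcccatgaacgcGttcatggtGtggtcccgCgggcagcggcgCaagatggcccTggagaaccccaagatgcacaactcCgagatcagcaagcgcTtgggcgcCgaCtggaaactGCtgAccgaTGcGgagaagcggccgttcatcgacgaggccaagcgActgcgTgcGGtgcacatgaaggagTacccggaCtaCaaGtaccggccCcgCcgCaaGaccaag
Sox1: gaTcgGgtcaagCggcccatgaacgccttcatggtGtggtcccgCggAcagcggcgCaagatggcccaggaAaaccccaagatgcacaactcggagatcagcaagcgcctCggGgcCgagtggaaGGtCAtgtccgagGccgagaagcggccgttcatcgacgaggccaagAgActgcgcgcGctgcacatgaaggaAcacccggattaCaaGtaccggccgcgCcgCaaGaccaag
The Sox3 box differed from that of Sox2 at 29 of 237 bases and 7 of 79 residues. The Sox1 box differed at 25 bases and 3 residues.

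The boxes of the 9 genes followed the SOX groups, except that SOXB1 and SOXB2 were not set apart. Identity to the SOX2 residues was 96.2% for SOX1, 92.4% for SOX21 and 91.1% for SOX3, so by this window the SOXB2 repressor was as close to SOX2 as the SOXB1 activator SOX3. SOX15 followed at 77.2%, the 3 SOXC proteins at 62.0% to 63.3% and SOX13 at 51.9%. SOX4 and SOX11 shared 93.7% of their residues, and each shared 87.3% with SOX12. Outside the box the proteins differ in size, with 319 residues in SOX2, 391 in SOX1, 450 in SOX3, 276 in SOX21 and 231 in SOX15. The longest run of bases shared by the transcripts of any pair was 48 bases, between Sox4 and Sox11, and none of the 36 pairs shared a run as long as the 76 nt reads. Of the 54 expected counts of the 9 genes, 6 were not whole numbers, which is the mark of reads divided between genes, and these belonged to Sox2, Sox3 and Sox11.

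**Figure D1:**
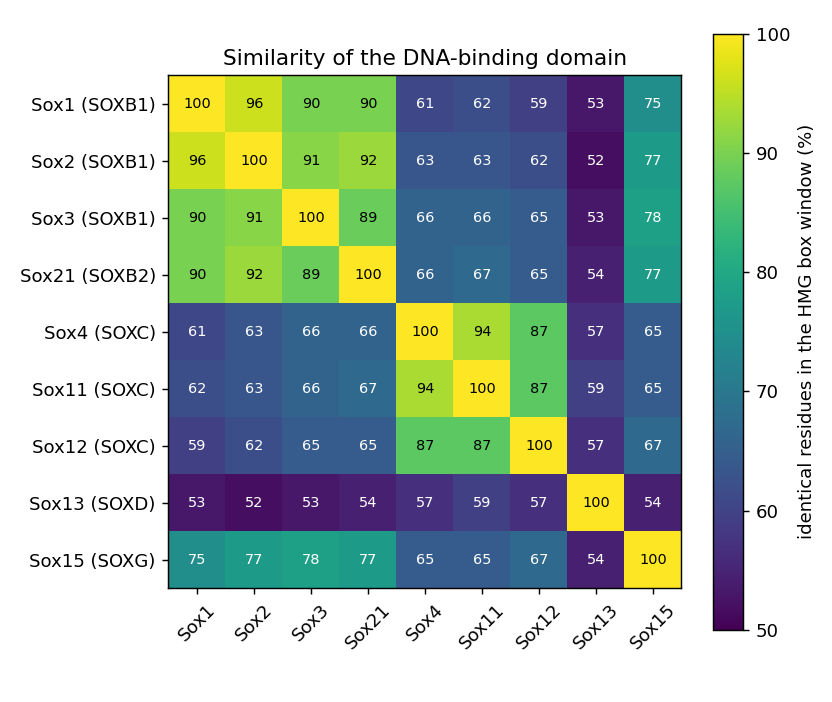
Percent of identical residues in the HMG box window of 79 codons for every pair of the 9 SOX proteins, with SOX groups in brackets and colour running from 50% to 100%. The SOXB proteins form 1 block and the SOXC proteins another, with SOX15 nearer to the SOXB block (77.2% to SOX2) than to SOX13 (54.4%).

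The study also made lines in which Sox2 and Sox3 were ablated, none of which is among these libraries. The guide sites are shown because they place the guides relative to the box, with the protospacer adjacent motif in capitals, and each is written 5′ to 3′ on the strand the guide matches.
Sox2 site: cgggcccgcagcaagcttCGG
Sox3 site: cagcaggctgtacatcgccgGGG
The Sox2 site was found from the second of the study's paired oligos for that guide, by 18 bases of its reverse complement, since the first did not match the transcript as written. The matched bases of the Sox2 guide lie in the coding exon at chr3:34650450-34650467, over codons 12 to 18, and end 23 codons before the box. Those of the Sox3 guide lie at chrX:60893191-60893210 on the strand opposite to the transcript, over codons 74 to 80, with codon 80 lying 62 codons before the box. The protospacer adjacent motif of the Sox3 guide is on the side of codon 74, away from the box. That of the Sox2 guide is on the side of codon 18, towards the box, so the distances of 62 and 23 codons are not alike.

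The libraries held between 16967741 and 35096210 expected counts, so that 3 counts corresponded to between 0.0855 and 0.177 CPM (counts scaled to a common library size). All 5 naive ESC markers fell and all 5 epiblast-like markers rose in EpiLCs, and Pou5f1 lay between 1237 and 1574 TPM (transcripts scaled for length and library size) in the 6 libraries. Between groups, 6571 of 14468 genes tested changed (45.4%, edgeR quasi-likelihood test with Benjamini-Hochberg adjusted p of at most 0.05). Genes of other cell types were uneven among the ESC libraries. The 14 fibroblast markers summed to 318, 1525 and 113 TPM in ESC replicates 1, 2 and 3 and to between 96.0 and 105 TPM in EpiLCs, with Fap, Lum or both at 0 in every library but ESC 2. Of the 12 tested, 5 fell, against 8 without ESC replicate 3 and 2 without EpiLC replicate 1 or EpiLC replicate 3, and 1 rose without ESC replicate 2. The 6 primitive streak markers summed to 407, 154 and 122 TPM in the same ESC libraries, to 7.88 and 8.42 TPM in EpiLC replicates 1 and 2 and to 45.1 TPM in EpiLC replicate 3. Of the 6, 4 fell, against 2 where 10 counts were required in every library. The 6 primitive endoderm markers summed to between 32.4 and 56.1 TPM in ESCs and 10.1 and 10.5 TPM in EpiLCs, with 4 of 6 falling. Beside these counts of falls, 22.8% of all genes tested fell. The part of these cells in the SOX values was not tested, other than by leaving out each library.

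All 9 SOX genes passed the filter on low counts. Sox3, Sox4 and Sox11 rose in EpiLCs, against 22.6% of all genes tested, and Sox2, Sox15 and Sox21 fell, against 22.8%. Sox1, Sox12 and Sox13 did not pass the threshold in either direction. The TPM ranges of the groups did not overlap for 7 of the 9 genes, against 59.5% of all genes tested. The median of the unsigned log2 fold changes was 1.15 over the 9 genes and 0.38 over all genes tested, whereas the signed medians were 0.10 and -0.0017. The 9 genes were chosen with earlier results of these data known, and changes of this size were not particular to them. Among other SOX genes, Sox17 (-2.68), Sox9 (-2.43) and Sox18 (1.37) changed by more than 1.15 on the log2 scale. Of the 10 others tested, 5 did not pass the threshold.

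**Figure D2:**
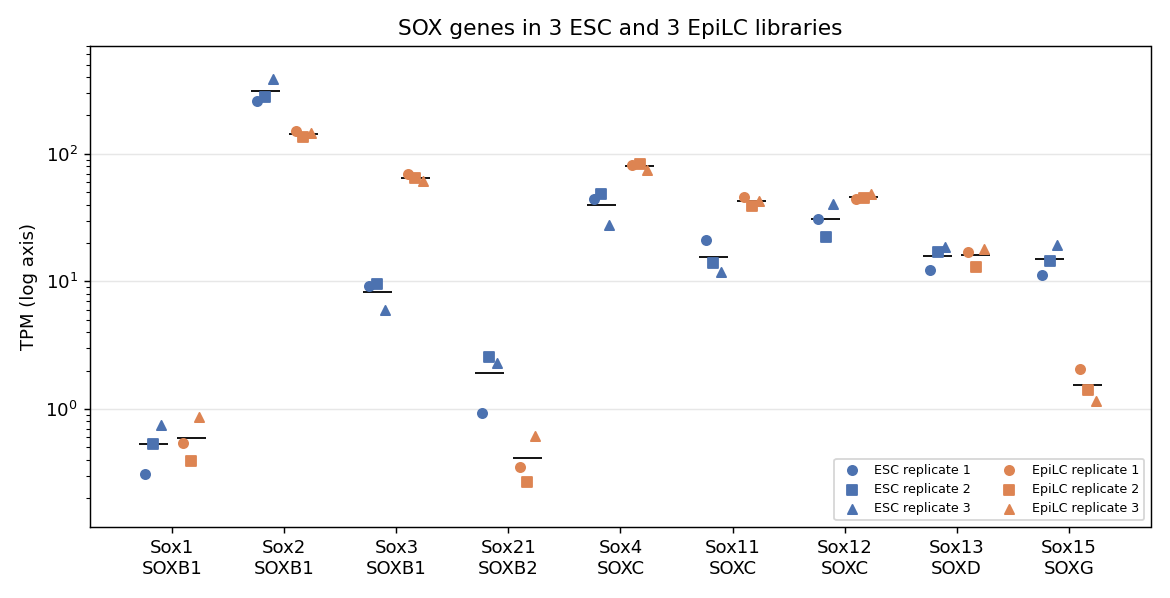
TPM of the 9 SOX genes in every library on a log axis, with ESCs in blue, EpiLCs in orange, marker shapes for replicates 1 to 3 and black bars for group means. Sox3 moves from at most 9.61 TPM in the ESC libraries to at least 61.4 TPM in the EpiLC libraries, while Sox2 remains the highest in both groups.

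Sox2, the SOX gene that ESCs require, fell to less than its ESC level but was not switched off. It stood at 261, 281 and 385 TPM in ESC replicates 1 to 3 and at 151, 135 and 146 TPM in EpiLC replicates 1 to 3. Every EpiLC library lay below every ESC library, and ESC replicate 3 stood above the other ESCs. The mean fell 2.14-fold, from 308.9 ± 66.6 to 144 ± 7.86 TPM (SD, n = 3), with a log2 fold change of -1.15 (SE 0.15, edgeR adjusted p = 0.00146). Among all genes tested, 11.6% fell at least as far. The mean Sox2 level exceeded that of 96.6% of tested genes in ESCs and of 91.9% in EpiLCs. Because the RNA comes from many cells at once, fewer cells of a type and less RNA per cell cannot be told apart for this or any other gene.

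Sox3, which is X-linked and acts beside Sox2 in the epiblast and neural plate, rose furthest of the 9 genes. It measured 9.24, 9.61 and 6.02 TPM in ESC replicates 1 to 3 and 69.9, 64.1 and 61.4 TPM in EpiLC replicates 1 to 3. The groups were far apart, and the spread within each was small beside the gap between them. The mean rose from 8.29 ± 1.97 to 65.1 ± 4.33 TPM (SD, n = 3), 7.85-fold, with a log2 fold change of 2.93 (SE 0.18, edgeR adjusted p = 9.3e-05). Only 162 of the 14468 tested genes, 1.12%, rose at least as far. Sox3 thereby moved from above 38.1% of tested genes by mean TPM in ESCs to above 81.3% in EpiLCs.

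Sox1, the earliest marker of the neural plate among the SOXB1 genes, was low in both groups. Its TPM was 0.31, 0.53 and 0.75 in ESC replicates 1 to 3 and 0.54, 0.39 and 0.86 in EpiLC replicates 1 to 3, from between 13 and 50 counts per library. The ranges overlapped, and a log2 fold change of 0.10 (SE 0.44, edgeR adjusted p = 0.869) leaves changes of either sign possible at this depth.

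The summed SOXB1 level (Sox1, Sox2 and Sox3) differed less between the groups than Sox2 alone. It was 271, 291 and 392 TPM in ESC replicates 1 to 3 and 221, 199.8 and 208 TPM in EpiLC replicates 1 to 3. The groups did not overlap, yet the lowest ESC library was closer to the highest EpiLC library than to the highest ESC library. The ESC mean was 318 ± 64.9 TPM and the EpiLC mean 209.8 ± 10.7 TPM (SD, n = 3), 0.660 of the former, with an exact two-sided permutation p of 0.1, the smallest that 3 against 3 libraries allow. In mean TPM, Sox2 lost 165 and Sox3 gained 56.8, so that the gain of Sox3 equalled 34.5% of the loss of Sox2.

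The composition of the SOXB1 pool differed between the groups as well. Sox3 supplied 3.41%, 3.31% and 1.54% of the SOXB1 TPM in ESC replicates 1 to 3 and 31.6%, 32.1% and 29.5% in EpiLC replicates 1 to 3. The means were 2.75 ± 1.05% and 31.0 ± 1.39% (SD, n = 3), a difference of 28.3 percentage points (exact two-sided permutation p = 0.1). On unscaled expected counts the difference was 24.9 percentage points, since TPM divides by transcript length. The ratio of Sox2 to Sox3 TPM was 28.3, 29.2 and 64.0 in the ESC libraries and 2.16, 2.11 and 2.38 in the EpiLC libraries, so that it varied little among EpiLCs. Sox2 still made up 68.7 ± 1.28% of the pool in EpiLCs, and Sox1 at most 0.413% in any library.

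Pou5f1, the usual partner of SOX2, did not pass the threshold. Its log2 fold change was 0.07 (SE 0.081, edgeR adjusted p = 0.496), and its TPM was 1237, 1351 and 1418 in ESC replicates 1 to 3 and 1425, 1574 and 1355 in EpiLC replicates 1 to 3. Set against Pou5f1 in the same library, the SOXB1 sum was 21.9%, 21.5% and 27.6% in ESCs and 15.5%, 12.7% and 15.4% in EpiLCs, and the groups did not overlap. The ratio of Pou5f1 to Sox2 TPM was 4.41 ± 0.632 in ESCs and 10.1 ± 1.31 in EpiLCs (SD, n = 3, exact two-sided permutation p = 0.1).

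**Figure D3:**
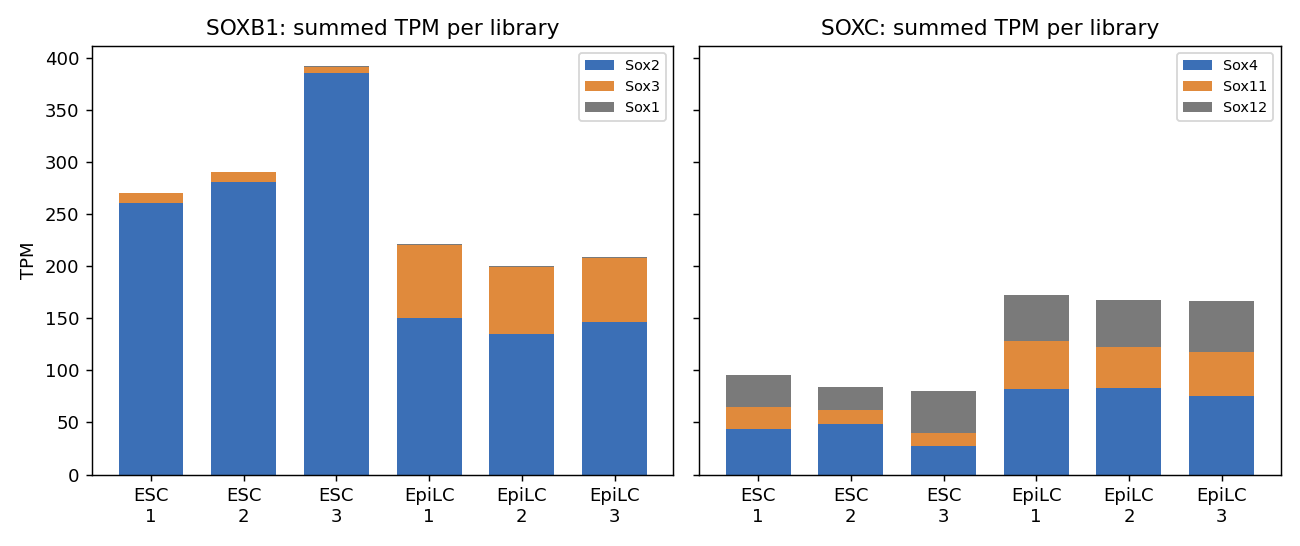
Stacked TPM per library, with Sox2, Sox3 and Sox1 in the left panel and Sox4, Sox11 and Sox12 in the right panel on the same axis from 0. The SOXB1 bars stand between 271 and 392 TPM in ESCs and between 199.8 and 221 TPM in EpiLCs, with a larger Sox3 part in the latter, and the SOXC bars between 80.0 and 95.8 TPM in ESCs and between 167 and 173 TPM in EpiLCs.

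Sox21, the SOXB2 gene and a repressor at sites that SOX2 can occupy, was low in ESCs and lower in EpiLCs. It measured 0.94, 2.55 and 2.28 TPM in ESC replicates 1 to 3 and 0.35, 0.27 and 0.62 TPM in EpiLC replicates 1 to 3. The groups did not overlap, and ESC replicate 1 was the lowest of the ESCs. Counts ranged from 37 to 117 in ESCs and from 16 to 34 in EpiLCs. The log2 fold change was -2.27 (SE 0.49, edgeR adjusted p = 0.00928) and the mean 4.65-fold lower, from 1.92 ± 0.862 to 0.413 ± 0.183 TPM (SD, n = 3). Sox21 and Sox3, whose boxes are about equally close to that of Sox2, thus moved in opposite directions. Sox14, the other SOXB2 gene, rose from between 0.11 and 0.19 TPM to between 0.92 and 1.15 TPM (edgeR adjusted p = 0.000949). It had 3 counts in each ESC library, so no fold change is given, and it was not tested where 10 counts were required in every library.

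Sox4, the SOXC gene with the highest mean in both groups and a regulator of progenitor survival and neuronal differentiation, rose in EpiLCs. It stood at 44.0, 48.2 and 27.8 TPM in ESC replicates 1 to 3 and at 81.8, 83.4 and 75.1 TPM in EpiLC replicates 1 to 3. No EpiLC library reached down into the ESC range, and ESC replicate 3 was the lowest. The mean rose 2.00-fold from 40.0 ± 10.7 to 80.1 ± 4.40 TPM (SD, n = 3), with a log2 fold change of 0.95 (SE 0.19, edgeR adjusted p = 0.00626). Of all genes tested, 9.98% rose at least as far.

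Sox11, which acts beside Sox4 in immature neurons and whose box is the nearest to that of Sox4, rose more. It measured 21.1, 14.0 and 11.8 TPM in ESC replicates 1 to 3 and 46.2, 39.0 and 42.9 TPM in EpiLC replicates 1 to 3. The groups were separated by a wide gap. The mean rose 2.73-fold from 15.6 ± 4.81 to 42.7 ± 3.62 TPM (SD, n = 3), with a log2 fold change of 1.40 (SE 0.20, edgeR adjusted p = 0.00197), and 5.96% of tested genes rose at least as far.

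Sox12, the weakest activator of the SOXC proteins, did not pass the threshold, although its groups were apart. It measured 30.7, 22.1 and 40.4 TPM in ESC replicates 1 to 3 and 44.6, 45.4 and 48.5 TPM in EpiLC replicates 1 to 3. ESC replicate 3 came close to the EpiLC libraries, in contrast to its low Sox4 and Sox11. The log2 fold change was 0.51 (SE 0.20, edgeR unadjusted p = 0.0391, adjusted p = 0.0765). With DESeq2 the adjusted p was 0.0341, and without ESC replicate 3 the edgeR log2 fold change was 0.76 with an adjusted p of 0.00707.

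As a group, the SOXC genes supplied 95.8, 84.3 and 80.0 TPM in ESC replicates 1 to 3 and 173, 168 and 167 TPM in EpiLC replicates 1 to 3. Relative to its mean, this sum varied less between ESC libraries than each of its parts, with a coefficient of variation of 9.38% against 26.9% for Sox4, 30.8% for Sox11 and 29.4% for Sox12. A sum of genes that vary independently also varies less than its parts, and a relation between the 3 genes was not tested. The library with the lowest Sox4 and Sox11 had the highest Sox12. The ESC mean was 86.7 ± 8.13 TPM and the EpiLC mean 169 ± 3.18 TPM (SD, n = 3), 1.95-fold higher (exact two-sided permutation p = 0.1). Sox4 made up 45.9 ± 11.2% of it in ESCs and 47.4 ± 2.31% in EpiLCs, whereas the part of Sox11 was 17.8 ± 3.74% in ESCs and 25.3 ± 1.83% in EpiLCs.

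The EpiLC mean minus the ESC mean was 82.2 TPM for the SOXC sum and -107.9 TPM for the SOXB1 sum. The ratio of SOXC to SOXB1 TPM was 0.354, 0.290 and 0.204 in ESC replicates 1 to 3 and 0.780, 0.839 and 0.799 in EpiLC replicates 1 to 3. The means were 0.283 ± 0.0750 and 0.806 ± 0.0300 (SD, n = 3, exact two-sided permutation p = 0.1). The TPM of all 9 genes together overlapped between the groups, at 437 ± 65.5 in ESCs and 397 ± 15.6 in EpiLCs (exact two-sided permutation p = 0.5). SOXB1 genes made up 72.3 ± 3.77% of that total in ESCs and 52.9 ± 0.606% in EpiLCs, and SOXC genes 20.2 ± 4.45% and 42.6 ± 1.13%.

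Sox13, the SOXD gene, which has a role in lymphocytes and binds TCF1, had the same mean in both groups. It measured 12.2, 16.9 and 18.8 TPM in ESC replicates 1 to 3 and 17.1, 12.9 and 18.0 TPM in EpiLC replicates 1 to 3. The ranges overlapped nearly in full, with means of 16.0 ± 3.39 and 16.0 ± 2.76 TPM (SD, n = 3) and a log2 fold change of -0.05 (SE 0.20, edgeR adjusted p = 0.857). The other SOXD genes, Sox5 and Sox6, were at or under 0.38 TPM in every library.

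Sox15, the SOXG gene, fell furthest of the 9. It stood at 11.3, 14.5 and 19.3 TPM in ESC replicates 1 to 3 and at 2.07, 1.40 and 1.15 TPM in EpiLC replicates 1 to 3. In ESCs it was thus above Sox3 in every library, and in EpiLCs far below it. The mean was 9.76-fold lower in EpiLCs, at 1.54 ± 0.476 against 15.0 ± 4.05 TPM (SD, n = 3), with a log2 fold change of -3.33 (SE 0.32, edgeR adjusted p = 0.000436). Among all genes tested, 361 of 14468 fell at least as far. Its transcript is short, and the EpiLC values rest on 37, 24 and 18 counts.

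**Figure D4:**
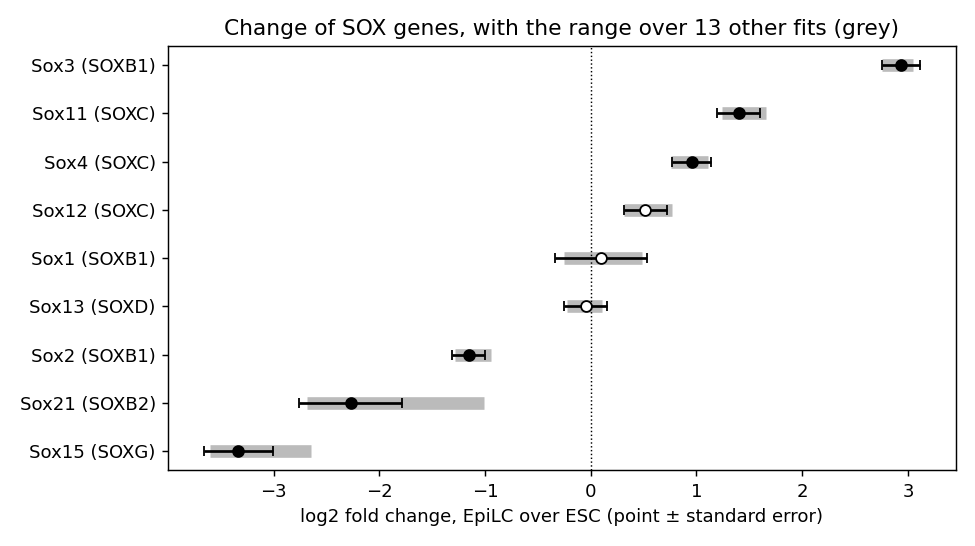
Log2 fold change of each SOX gene from ESC to EpiLC (point, with its standard error), filled where the edgeR adjusted p was at most 0.05 and open otherwise. Grey bars give the lowest and highest log2 fold change over 13 other fits, and those of the 6 filled genes stay on 1 side of 0.

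By mean TPM, the order of the genes differed below the top. In ESCs Sox2 led, with Sox4 and Sox12 next and overlapping each other, then Sox13, Sox11 and Sox15 overlapping in all 3 pairs, then Sox3 and Sox21. In EpiLCs Sox2 led again, followed by Sox4, Sox3, then Sox12 and Sox11, which overlapped, then Sox13 and Sox15, with Sox1 and Sox21 both below 1 TPM in every library and overlapping at the end. Sox3 rose from the seventh place to the third, and Sox15 stood just above it in ESCs. Sox2 exceeded the next gene, Sox4, in every library of both groups. Sox1 was below Sox21 in every ESC library and above it in every EpiLC library, but as it was below 1 TPM in all 6 its place was not read further.

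Replicates were less alike in ESCs than in EpiLCs. The 6 SOX genes above 5 TPM in every library had a median coefficient of variation of 25.3% in ESCs and 6.07% in EpiLCs, against 9.34% and 5.16% for the 9009 tested genes above the same level. ESC replicate 3 had the highest Sox1, Sox2, Sox12, Sox13 and Sox15 and the lowest Sox3, Sox4 and Sox11. That library also had the highest sum of the 5 naive markers, at 1875 TPM against 1414 and 1485 TPM in ESC replicates 1 and 2, and the lowest fibroblast and primitive streak sums. Its part in these values was not tested. Without it, the log2 fold changes were -0.95 for Sox2, 2.75 for Sox3, 0.76 for Sox4 and 1.25 for Sox11, and all 4 stayed past the threshold. Without ESC replicate 2, which had the highest fibroblast sum, they were -1.22 for Sox2, 3.05 for Sox3, 1.11 for Sox4 and 1.33 for Sox11, again all past the threshold.

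**Figure D5:**
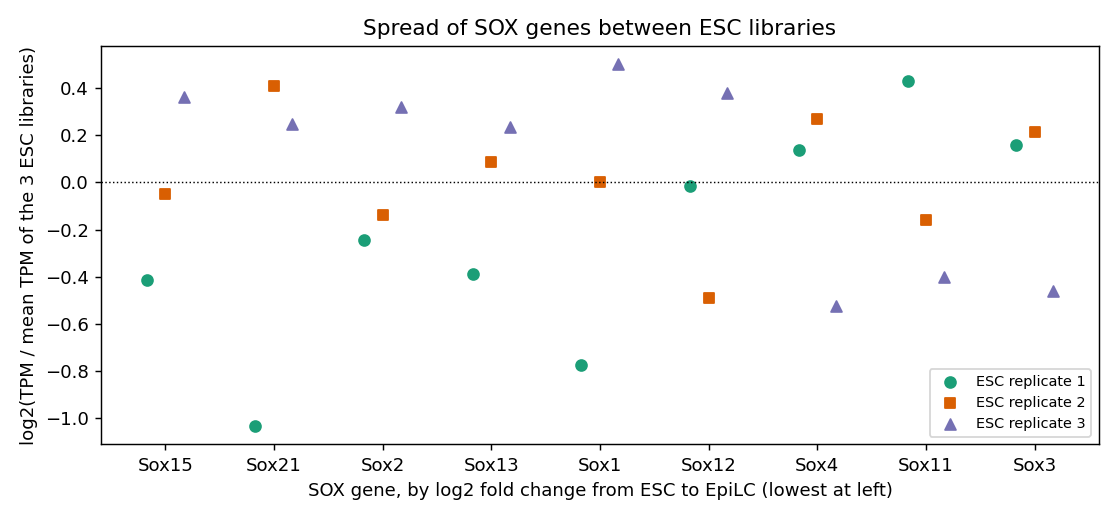
Log2 of each SOX gene's TPM in ESC replicates 1 to 3 over the mean of the 3 ESC libraries, with genes ordered by their log2 fold change from ESC to EpiLC. ESC replicate 3 (triangles) lies above the mean for the 3 genes that fell in EpiLCs, at 0.32 for Sox2, and below it for the 3 that rose, at -0.46 for Sox3.

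Other SOX genes were lower than most of the 9. Of the 11 in the table, 10 were tested, of which 2 rose and 3 fell (22.6% and 22.8% of all genes tested), with a median log2 fold change of -0.37 against -0.0017 over all genes tested. The number that rose was 1 without ESC replicate 1, EpiLC replicate 2 or EpiLC replicate 3, and 0 where 10 counts were required in every library. Sox17 of the SOXF group, which specifies endoderm, fell by 2.68 on the log2 scale (SE 0.40, edgeR adjusted p = 0.0022), and Sox9, a SOXE gene of cartilage and neural crest, fell by 2.43 (SE 0.41, edgeR adjusted p = 0.00351), from 9.15, 9.97 and 4.49 TPM in ESC replicates 1 to 3 to between 0.85 and 1.83 TPM in EpiLCs. In ESCs its range overlapped that of Sox3. The third fall was that of Sox5, at an edgeR adjusted p of 0.0447, and 2 in place of 3 genes fell in 11 of 13 alternative fits, DESeq2 among them. Sox18, a SOXF gene of vessels, rose by 1.37 (SE 0.34, edgeR adjusted p = 0.0161) but stayed at or under 1.36 TPM, and without ESC replicate 1, EpiLC replicate 2 or EpiLC replicate 3 its adjusted p was 0.0518, 0.0659 or 0.054. All 11 together summed to between 8.41 and 15.5 TPM in ESCs and 5.70 and 6.45 TPM in EpiLCs.

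POU factors include partners with which SOX proteins pair on DNA. Of 8 tested, 3 rose and 2 fell (22.6% and 22.8% of all genes tested), with a median log2 fold change of 0.30. Pou3f1 (OCT6), a partner of SOX2 and SOX3 in epiblast and neural cells, rose from between 8.36 and 11.3 TPM to between 149.8 and 186 TPM (log2 fold change 4.07, SE 0.14, edgeR adjusted p = 1.66e-05). Pou2f2 rose by 1.78 (SE 0.39, edgeR adjusted p = 0.00998), and Pou6f1 and Pou2f3 fell by 2.28 (SE 0.20, edgeR adjusted p = 0.000327) and 2.01 (SE 0.19, edgeR adjusted p = 0.000371) on the log2 scale. Pou3f1 was above Sox2 in every EpiLC library, at 178, 186 and 149.8 TPM against 151, 135 and 146 TPM in EpiLC replicates 1 to 3, although the ranges overlapped slightly. In ESCs the TPM range of Pou3f1 overlapped that of Sox3.

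Genes known to carry adjacent SOX2 and OCT4 motifs did not share a direction. Of 10 tested, 3 rose and 5 fell (22.6% and 22.8% of all genes tested), with a median log2 fold change of -1.21. Nanog fell by 4.81 on the log2 scale (SE 0.54, edgeR adjusted p = 0.000703) and Lefty1, a Nodal inhibitor, by 3.36 (SE 0.59, edgeR adjusted p = 0.00425). Both were higher in EpiLC replicate 3 than in the other EpiLCs, at 22.5 TPM for Nanog and 10.8 TPM for Lefty1, and without that library the log2 fold changes were -5.65 and -4.27. Utf1, a chromatin factor of pluripotent cells, rose from between 186 and 273 TPM to between 489 and 556 TPM (log2 fold change 1.13, SE 0.14, edgeR adjusted p = 0.00108), and Zscan10 rose by 0.63 (SE 0.067, edgeR adjusted p = 0.000599). Thus the fall of Sox2 went with falls in some of these genes and rises in others.

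Genes of proteins known to bind SOX2 or act with it also moved in both directions. Of 13 tested, 4 rose and 5 fell (22.6% and 22.8% of all genes tested), with a median log2 fold change of -0.02. Leaving out 1 EpiLC library left 2 rises in each case, and 1, 2 or 3 falls without replicate 1, 2 or 3. There were 3 falls without ESC replicate 1 or ESC replicate 3. Nr0b1 (DAX1), a naive-state repressor, fell from between 53.7 and 76.5 TPM to between 1.58 and 2.42 TPM (log2 fold change -5.09, SE 0.22, edgeR adjusted p = 4.2e-05). Tcf7l1 (TCF3), the WNT pathway repressor, rose by 0.65 on the log2 scale (SE 0.086, edgeR adjusted p = 0.00137). Mta1 of the NuRD complex rose by 0.46 (SE 0.13, edgeR adjusted p = 0.0231) and the acetyltransferase adaptor Trrap fell by 0.41 (SE 0.099, edgeR adjusted p = 0.0145). The adjusted p of Mta1 was 0.0713, 0.0607 or 0.0639 without EpiLC replicate 1, 2 or 3, and that of Trrap was 0.052 without EpiLC replicate 1.

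Known SOXC targets and neuronal genes were also counted beside Sox4 and Sox11. Of 6 SOXC targets tested, 3 rose and 1 fell (22.6% and 22.8% of all genes tested), with a median log2 fold change of 0.62. Tubb3, a neuronal tubulin, rose by 0.83 (SE 0.18, edgeR adjusted p = 0.00977), Dcx rose (edgeR adjusted p = 0.00508) but stayed at or under 0.32 TPM, and Ncam1 fell by 2.63 on the log2 scale (SE 0.41, edgeR adjusted p = 0.00268). Ncam1 was highest in ESC replicate 2, at 31.3 TPM, and without that library, which also had the highest fibroblast sum, its log2 fold change was -2.01. Dcx rested on 5, 1 and 2 counts in the ESC libraries, so no fold change is given, and with 10 counts required in every library it was not tested and 2 SOXC targets rose. Among 7 neuron markers, 3 of which (Tubb3, Dcx and Map2) are also SOXC targets, 4 rose and 1 fell, beside the same shares of all genes. Tubb3 and Dcx are thus counted in both lists. Elavl3 rose by 2.21 (SE 0.19, edgeR adjusted p = 0.000256) and Stmn2 fell by 0.96 (SE 0.17, edgeR adjusted p = 0.00468). The neuron sums overlapped between groups, at 221 to 315 TPM in ESCs and 239 to 282 TPM in EpiLCs. Of 7 tested neural progenitor markers, 1 rose, Six3, which stayed at or under 0.30 TPM, and Olig2 was at 0 in 2 ESC libraries. The number that rose was 2 without ESC replicate 2, ESC replicate 3 or EpiLC replicate 3, 0 where 10 counts were required in every library and 4 with limma on log2(TPM + 1), and without ESC replicate 1 there was 1 fall. With DESeq2, Six3 did not pass the threshold (DESeq2 adjusted p = 0.0691), while 1 other marker rose and 1 fell. Apart from Nes, no neural progenitor marker exceeded 3.38 TPM in any library. The 8 markers summed to between 29.7 and 55.1 TPM in ESCs and between 58.9 and 93.4 TPM in EpiLCs, most of it from Nes.

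The genes whose pattern over the 6 libraries was most like that of Sox2, by the root mean square distance between centred log2 CPM values among the 9207 genes that averaged 10 CPM or more, were Mlh3 (distance 0.084), Tm7sf3 (0.10) and Sik1 (0.10). Their mean TPM was 23.6, 34.6 and 32.8 in ESCs and 11.1, 18.2 and 14.6 in EpiLCs, all below that of Sox2. Most like Sox3 were Fam131b (distance 0.16), Prss8 (0.19) and Hes6 (0.24), with log2 fold changes of 3.09, 2.72 and 2.60. Of these, Hes6 reached the level of Sox3 in EpiLCs, at a mean of 70.9 TPM.

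The nearest protein-coding genes on the chromosome that do not overlap the SOX gene were compared as well. Of the 18 neighbours, 1 on each side of every SOX gene, 12 were tested and 3 changed, beside 45.4% of all genes tested. Cd68, 7.49 kb beyond Sox15, fell by 1.01 on the log2 scale (SE 0.21, edgeR adjusted p = 0.0078), whereas Fxr2, 2.02 kb on its other side, had a log2 fold change of -0.12 (edgeR adjusted p = 0.0805). Zcchc3, 13.9 kb beyond Sox12, rose by 1.07 (SE 0.10, edgeR adjusted p = 0.000375), while Sox12 itself did not pass the threshold. Cdkal1, 238 kb beyond Sox4, fell by 0.39 (SE 0.10, edgeR adjusted p = 0.0173) while Sox4 rose. No tested neighbour of Sox2 or Sox3 passed the threshold. Sox2 lies within the long noncoding gene Sox2ot on the same strand, so that strand does not separate their reads. Sox2ot itself was between 0.21 and 0.73 TPM in the 6 libraries, with overlapping groups. Sox1 overlaps Sox1ot in the same way, and Sox15 overlaps Mpdu1 on the opposite strand, which the stranded counts keep apart.

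The 250 bases before the RefSeq start (GRCm38.p6) could be read for 8 of the 9 genes. Those of Sox2, Sox4 and Sox11 are shown because these genes carry most SOX mRNA that changed apart from Sox3 and differ in motif content. They lie at chr3:34649745-34649994 on the plus strand, chr13:28953700-28953949 on the minus strand and chr12:27342719-27342968 on the minus strand. Capitals mark the SOX core ACAAAG, the CCAAT box and the GC box GGGCGG on either strand, none of which overlap in these windows.
Sox2 promoter: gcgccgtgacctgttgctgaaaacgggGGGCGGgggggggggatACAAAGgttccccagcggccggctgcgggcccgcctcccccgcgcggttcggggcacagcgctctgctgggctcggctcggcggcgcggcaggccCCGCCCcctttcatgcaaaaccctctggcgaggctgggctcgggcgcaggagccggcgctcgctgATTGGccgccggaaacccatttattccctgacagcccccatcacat
Sox4 promoter: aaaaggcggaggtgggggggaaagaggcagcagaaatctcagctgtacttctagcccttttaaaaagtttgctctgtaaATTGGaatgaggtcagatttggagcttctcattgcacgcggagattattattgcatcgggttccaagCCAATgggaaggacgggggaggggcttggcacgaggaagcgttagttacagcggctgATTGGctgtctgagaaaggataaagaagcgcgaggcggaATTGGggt
Sox11 promoter: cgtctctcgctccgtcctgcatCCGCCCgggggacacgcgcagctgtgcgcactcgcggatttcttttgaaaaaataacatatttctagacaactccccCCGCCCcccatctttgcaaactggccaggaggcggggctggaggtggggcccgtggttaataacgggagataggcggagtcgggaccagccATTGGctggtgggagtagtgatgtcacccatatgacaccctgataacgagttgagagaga
Sox2 was the only 1 of the 8 with the SOX core, which 16.5% of 32851 promoter windows hold. The CCAAT box was found in 5 of the 8, Sox1, Sox2, Sox4, Sox11 and Sox12, against 33.8% of all windows, and in 4 copies in Sox4. The GC box was found in 4, Sox1, Sox2, Sox11 and Sox12, against 32.7%. None held TATAAA, which 12.4% of all windows hold, and Sox12 alone held the octamer ATGCAAAT, which 1.60% hold. The window of Sox15, the gene that fell furthest, had 5 CpG dinucleotides, against 11 to 35 in the other 7 and a median of 6 over all windows. These matches describe letters in a window and were not tested against the change of the genes.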

How the data were processed

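Poly(A) RNA of 3 ESC and 3 EpiLC libraries was sequenced by the authors as strand-specific single-end reads of 76 nt. Per the study's methods and processing notes, the authors trimmed adapters with cutadapt 1.16 and mapped and counted reads per gene with STAR 2.5.2a and RSEM 1.3.0 on mm10 RefSeq genes. The table the authors deposited holds expected counts from RSEM, unnormalized and with ambiguous reads divided between genes, and TPM, in which length and library size are scaled out. The culture methods give a longer time for EpiLCs than the 48 h of the labels. The study's results describe EpiLC identity after 48 h, as the labels do, and the labels were used.

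Expected counts were rounded, filtered with filterByExpr, TMM-normalized and tested with edgeR 4.0.16 (R 4.3.3, quasi-likelihood test) over 14468 genes with Benjamini-Hochberg adjustment at 0.05. The SE given with edgeR log2 fold changes was derived from the test, as the unsigned log2 fold change over the square root of the F statistic. TPM served for levels, sums and shares, which were compared by exact two-sided permutation tests. The pipeline was tested on simulated data. The members and lists were chosen with earlier results of these data known. All 9 SOX genes are named, and of each list at most 4 genes, the 2 largest rises and the 2 largest falls past the threshold. Sox5, Sox6, Fap, Lum, Olig2, Nes and Map2, and Pou5f1 as the usual SOX2 partner, are named outside that rule, all but Pou5f1 after their values were seen, as are chromosomal neighbours of the SOX genes. Alternatives were DESeq2 1.42.0, upper-quartile normalization, other filters, limma 3.58.1 on log2(TPM + 1) and log2(TPM + 0.1), a replicate block and leaving out each library. Ratios to Pou5f1 and shares from expected counts were added after the data were seen. Exons and coding sequences were taken from GENCODE M21 (GRCm38), promoter windows from RefSeq (GRCm38.p6), and guide sites from matching the study's oligos to the transcripts. The HMG box window starts 4 codons before the first residues that were used to align the boxes.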

Additional observations from a re-analysis of the deposited data

How the results depend on the processing

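Sox2, Sox3, Sox4, Sox11, Sox15 and Sox21 kept their direction and an adjusted p of at most 0.05 in all 13 alternative fits, with the largest adjusted p at 0.00974, 0.00122, 0.0267, 0.0112, 0.004 and 0.0448. The log2 fold change of Sox21 lay between -2.68 and -1.01, the latter on log2(TPM + 1), a scale that understates changes of low genes. Sox12 passed the threshold in 5 of 13, with log2 fold changes of 0.51 with DESeq2, 0.56 with the replicate block, 0.60 and 0.61 with limma on log2 TPM at pseudocounts of 1 and 0.1, and 0.76 without ESC replicate 3. Sox1 and Sox13, which did not pass, changed sign in some fits, and Sox12 did not. Without 1 library the log2 fold change of Sox1 lay between -0.25 (EpiLC replicate 3) and 0.49 (ESC replicate 3), with -0.19 without ESC replicate 1. That of Sox13 lay between -0.23 (without ESC replicate 1) and 0.10 (without ESC replicate 3), and was also 0.10 without EpiLC replicate 2 and 0.0102 and 0.0113 with limma at the pseudocounts of 1 and 0.1. Of the 9 genes, 3 fell and 3 or 4 rose in every alternative. The Sox3 share of SOXB1 differed by 24.9 percentage points on TMM-normalized CPM (24.9005) and on expected counts (24.9019), because neither divides by transcript length. Leaving out 1 library at a time gave between 4244 (without EpiLC replicate 1) and 7181 (without ESC replicate 2) changed genes. Of 39 other genes, those chosen by rule from the lists and the 6 most like Sox2 or Sox3, Sox18, Mta1, Trrap, Sall4, Col1a1, Col1a2 and Six3 lost their call in at least 1 fit, 18 of 501 fits in all, and none of the 39 changed sign.

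Replicate numbers come from the labels, and the study's methods do not say whether same-numbered libraries are pairs, so they were not taken as pairs. Same-numbered ESC and EpiLC libraries had correlations of deviations of 0.0067, 0.186 and 0.171. Differently numbered ones had correlations between -0.2145 and 0.0836, so these values do not settle whether the libraries are paired. With the replicate block, 6085 genes changed, against 6571 without it, and the EpiLC to ESC ratios of the SOXB1 and SOXC sums were 0.679 and 1.96. Leaving out 1 library at a time, they lay between 0.615 and 0.747 and between 1.88 and 2.06. With 3 libraries a group, the permutation tests of sums and shares cannot go below 0.1, and low counts limit Sox1 and Sox21.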
